A study of Arabidopsis thaliana with 2 samples.

Results

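The genes described here encode the machinery that copies nuclear DNA in Arabidopsis thaliana. They comprise the origin recognition complex, the loading factors CDC6 and CDT1, the helicase subunits MCM2 to MCM7, CDC45 and GINS, DNA polymerases alpha, delta and epsilon, PCNA, RFC1, DNA ligase 1, the flap endonuclease gene and ribonucleotide reductase. They are defined by gene identifier, in a list drawn up with earlier results of these data known, and all 35 were found among the 33557 genes of the deposited expression table. RNA was measured in 2 libraries of semi-in-vivo pollen tubes, which germinate on a cut pistil and leave its style to grow on solid medium: 1 library of tubes labelled drop1- drop2- (drop) and 1 of wild-type tubes (WT). Tubes were cut after growing 300 to 400 µm out of the style, and those of 2 stigmas were pooled for each Smart-seq2 library, so each genotype has 1 library, no value has a replicate error and no test across samples was possible. Both libraries share the medium, the emasculation 36 h before pollination and the hand-picked load of 500 to 600 grains per stigma. The treatment text speaks of mutant grains for both samples, so genotypes follow the genotype label, and the identity of the mutated genes is not given there.

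Replication starts where the origin recognition complex binds chromatin and, with CDC6 and CDT1, loads the MCM helicase. CDC45 and GINS then switch the helicase on, the polymerases copy both strands around the sliding clamp PCNA, and the flap endonuclease and DNA ligase 1 join the lagging-strand pieces. Ribonucleotide reductase supplies the deoxynucleotides. In a pollen tube the vegetative cell that forms the tube no longer divides, while it carries a pair of sperm cells derived from a dividing germ cell. Many replication genes of plants are known targets of E2F transcription factors, which bind sites related to TTTCCCGC and TTTGGCGC.

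Promoter sequences are shown first, because a part of the genes holds a sequence feature that the choice of genes did not use. In the RefSeq annotation of the TAIR10.1 genome, 16 of the 35 replication genes, or 45.7%, held TTTCCCGC, TTTCGCGC, TTTGCCGC or TTTGGCGC on either strand between 250 bases before and 50 bases after the annotated start. Among all 27444 protein-coding genes of the nuclear chromosomes 1.76% did. The matches were unevenly spread over the complexes: 5 of the 6 MCM genes, 4 of 7 genes of the origin recognition complex and 4 of 7 polymerase genes had one, against 0 of the 3 clamp and clamp loader genes and 0 of the 3 loading factors. The stretches below lie before the start of 9 of these genes, with the site in capitals (GCGGGAAA and GCGCCAAA are TTTCCCGC and TTTGGCGC read on the other strand). They are from chr1:16970170-16970213 (plus strand), chr5:18773851-18773894 (minus strand), chr2:7130739-7130782 (minus strand), chr2:3527501-3527544 (minus strand), chr5:18010688-18010731 (minus strand), chr2:15758557-15758600 (plus strand), chr5:5474298-5474341 (plus strand), chr3:3974441-3974484 (minus strand) and chr5:16760799-16760842 (plus strand) of TAIR10.1, in the order shown.
MCM2: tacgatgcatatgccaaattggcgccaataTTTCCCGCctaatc
MCM3: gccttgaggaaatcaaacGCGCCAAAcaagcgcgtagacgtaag
MCM4: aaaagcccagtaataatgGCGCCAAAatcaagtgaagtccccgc
MCM5: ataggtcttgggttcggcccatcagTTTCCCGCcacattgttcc
MCM6: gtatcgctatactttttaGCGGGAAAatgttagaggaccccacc
ORC2: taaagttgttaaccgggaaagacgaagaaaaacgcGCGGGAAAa
ORC3: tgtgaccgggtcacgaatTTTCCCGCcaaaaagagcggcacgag
PSF2: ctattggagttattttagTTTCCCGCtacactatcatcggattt
POLA3: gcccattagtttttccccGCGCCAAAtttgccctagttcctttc

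The pair of genes with by far the highest levels in these tubes, ORC6 and TSO2, held none of these letters in the window. For TSO2 the 250 bases before the start, chr3:9981621-9981870 (minus strand), are shown in lower case throughout because no searched motif matched. The start of ORC6 lies 40 bases downstream of the annotated end of the cullin gene CUL3 on the same strand, so only those 40 bases, chr1:9298630-9298669 (plus strand), are shown.
TSO2: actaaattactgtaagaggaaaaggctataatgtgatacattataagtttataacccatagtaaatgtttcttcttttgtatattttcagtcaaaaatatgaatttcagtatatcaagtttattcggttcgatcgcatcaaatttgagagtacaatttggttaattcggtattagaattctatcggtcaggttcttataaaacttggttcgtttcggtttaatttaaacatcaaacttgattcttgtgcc
ORC6: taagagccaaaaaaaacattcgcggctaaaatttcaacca

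Site II (TGGGCC or TGGGCT on either strand), a motif known from promoters of growth-related plant genes, was found in 19 of the 35 windows, or 54.3%, against 21.7% of all genes. ORC6 had 2 matches to it, both within the span of CUL3. The telo-box (AAACCCTA) was found in 4 of 35, or 11.4%, against 6.22% of all genes. Of the 69 matches in these windows, 0 overlapped a match to another motif. A match describes letters and does not show that a factor binds.

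**Figure D1:**
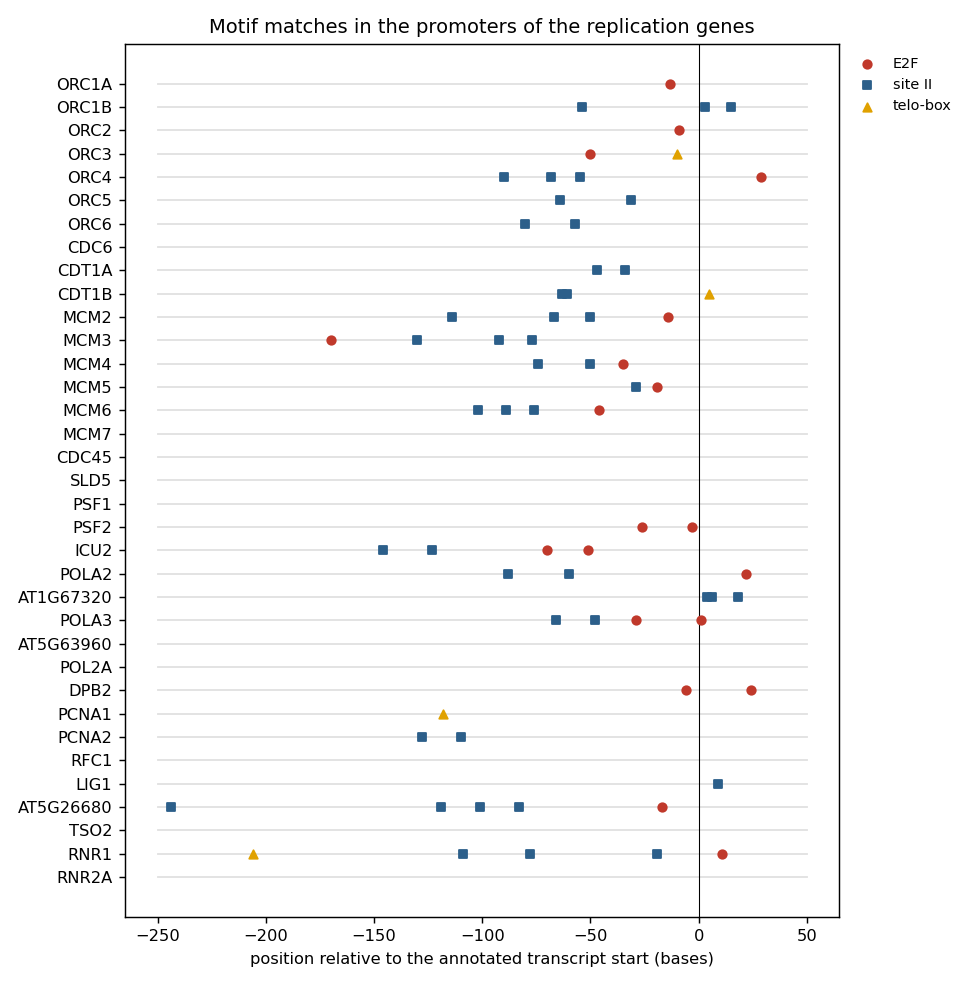
Positions of matches to the E2F site (circles), site II (squares) and the telo-box (triangles) in the 35 replication genes, in bases from the annotated transcript start (vertical line). E2F matches lie before or just after the start in 16 genes, and TSO2, RNR2A and MCM7 are among the genes with no match to any of the 3 motifs.

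Replication transcripts were lower in drop than in WT. Of the 35 genes, 19 were 2-fold or more below WT and 0 were 2-fold or more above it, on the scale of log2((drop FPKM + 1)/(WT FPKM + 1)). Across all 33557 genes 8.94% were that far below WT and 7.76% that far above. FPKM, the unit of the deposited values, counts fragments per kilobase of transcript, scaled to the number of mapped fragments, and the 1 added to each value makes the log2 ratio understate the change of genes with low values. The deposited value was below that of WT in 32 of the 35 genes and above it in 2, and the remaining gene, PCNA1, was listed at 0 in both libraries. The median log2 ratio of all 35 was -1.58. That of all genes was 0, a value set by the 16824 genes listed at 0 in both libraries. Because tubes were lysed whole, fewer cells of a type and less RNA per cell cannot be told apart.

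Detection differed in the same way. In drop 24 of the 35 genes were above 0, against 33 of 35 in WT, while 38.6% of all genes were above 0 in drop and 45.1% in WT. By the estimates given below, a single fragment was worth more FPKM in drop, so low transcripts are more readily listed at 0 there. The part of this in the counts was not tested. FPKM of at least 1 was reached by 8 of the 35 in drop and by 22 in WT. All 8 of those in drop were among the 22 of WT, so a filter at 1 FPKM admits these genes through WT and its results are not used as support. Among genes of at least 1 FPKM in at least 1 library 30.4% were 2-fold or more below WT and 26.4% as far above it. Set beside genes of like level, 9 of 9 replication genes with a mean log2(FPKM + 1) from 1 to 2 were 2-fold or more below WT, where 31.7% of the 3063 genes in that range were. From 2 to 4 it was 6 of 8, where 28.9% of 2927 genes were. It was 0 of 11 from 0 to 0.5, 2 of 4 from 0.5 to 1 and 2 of 2 from 4 up, where 0%, 28.7% and 16.7% of genes were. The mean is made of the same 2 values as the ratio, so members low in drop enter the higher ranges through WT. These counts are therefore a description and not used as support either.

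The scale of the libraries is uncertain, since the deposited FPKM of all genes summed to 2.82 times as much in drop as in WT. Each ratio was therefore also taken with equal sums, with the median ratio of genes past 10 FPKM in both libraries set to 1, after quantile normalization, and with equal sums without the 50 highest and the organelle genes. These moved the median log2 ratio of genes with at least 1 FPKM from -0.07 as deposited to -0.96, -0.77, 0.09 and -0.78. At equal sums 48.6% of those genes were 2-fold or more below WT and 4.39% as far above it. Of the 35 replication genes 19 were 2-fold or more below WT under all 5 scalings, and 0 were 2-fold or more above WT under any. Of all 33557 genes 2405 were that far below WT under all 5. Each of these had at least 1 FPKM in a library, and they were 24.3% of the 9880 genes that did. Depth is not given with FPKM. From the smallest steps of the values in long transcripts, 1 fragment was worth about 0.250 FPKM kb in drop and 0.133 in WT, and the fragment numbers below are approximate estimates from these.

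**Figure D2:**
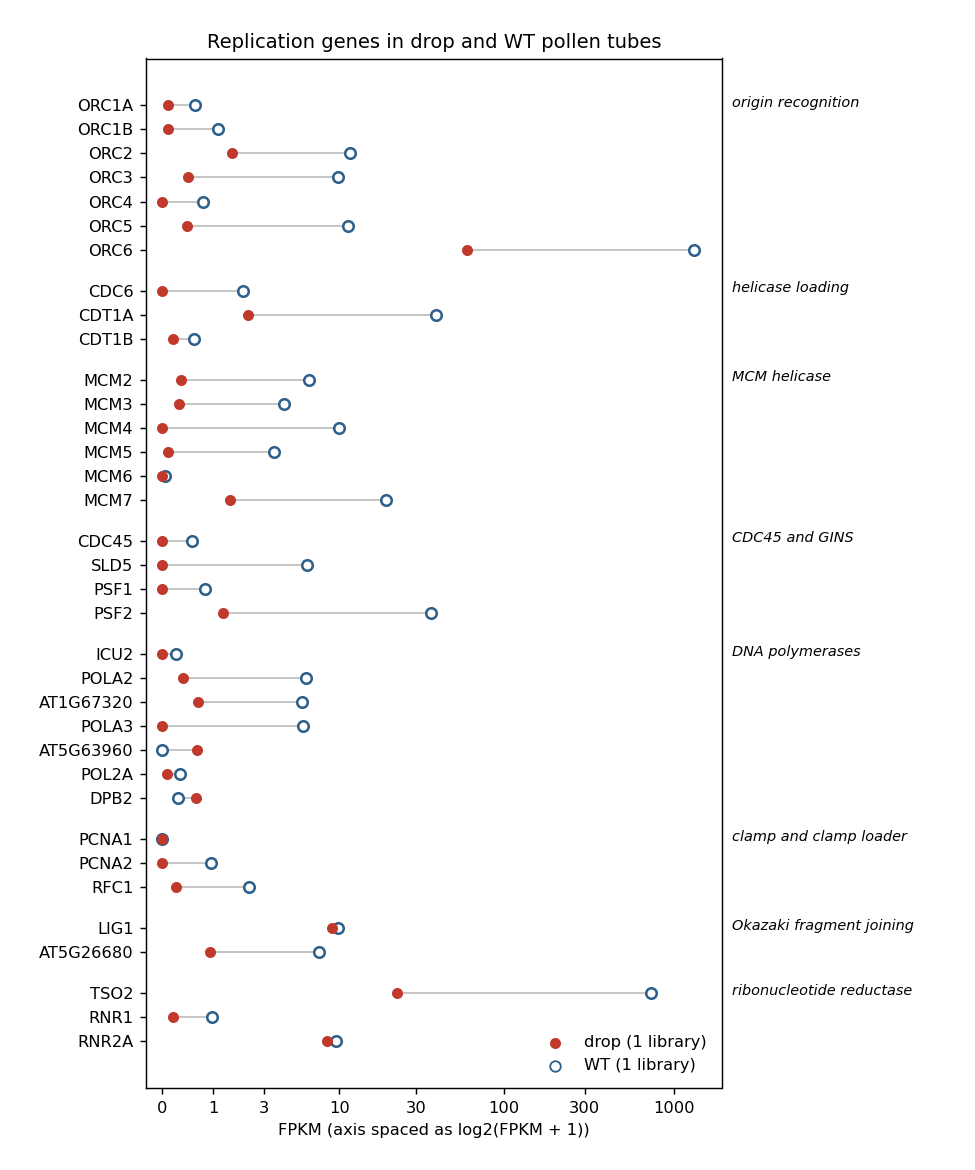
FPKM of the 35 replication genes in drop (filled) and WT (open), 1 library each, grouped by role on an axis spaced as log2(FPKM + 1). ORC6 and TSO2 stand far to the right in both libraries, and LIG1 and RNR2A are the pair above 8 FPKM whose points nearly coincide.

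Genes of the origin recognition complex, which marks where replication can start, were all below WT, and 4 of 7 were 2-fold or more below WT. ORC6, the smallest subunit, stood at 60.9 FPKM in drop and at 1322 FPKM in WT, which is 21.7-fold lower in drop. The value rests on about 294 fragments in drop and 11957 in WT. In rank among all genes ORC6 was at rank 1086 in drop and 126 in WT, and its log2 ratio of -4.42 was matched or passed on the low side by 113 genes of the table, itself included. Its neighbour CUL3, 40 bases upstream, was at 9.27 FPKM in drop and 5.09 in WT. The gene that follows ORC6 on the opposite strand, AT1G26850, was at 12.04 in drop and 10.8 in WT. Neither neighbour was below WT as deposited, but equal sums divides the drop values by 2.82, which puts both below WT.

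The other subunits were expressed at levels far below ORC6 in both libraries. ORC5 was at 0.416 FPKM in drop and 11.3 in WT. ORC3 was at 0.432 in drop and 9.84 in WT. ORC2 was at 1.58 in drop and 11.8 in WT, or 13.4% of WT. The 3 remaining genes were low throughout: the large subunit genes ORC1A at 0.0879 in drop and 0.567 in WT and ORC1B at 0.0831 in drop and 1.14 in WT, and ORC4 listed at 0 in drop and at 0.737 in WT. ORC1A and ORC1B are 91.8% identical over their aligned coding bases, so fragments may have been divided between them. The log2 ratio of ORC1B was -0.98 as deposited and -1.05 at equal sums, on either side of the 2-fold line.

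Of the loading factors, CDT1A was the only one with at least 10 FPKM in a library. It was at 2.22 FPKM in drop and 39.8 in WT, or 17.9-fold lower, from about 19 and 650 fragments. CDC6 (AT2G29680), the ATPase that loads the helicase with CDT1, was listed at 0 in drop and at 1.99 in WT. CDT1B, at 0.171 in drop and 0.557 in WT, differs more from CDT1A in sequence, with 65.2% identity over aligned coding bases.

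The MCM helicase genes were lower as a group, with 5 of 6 being 2-fold or more below WT. MCM7, also called PROLIFERA, was highest at 1.51 FPKM in drop and 19.7 in WT. It overlaps STP7 on the opposite strand over 437 bases, where fragments cannot be assigned to a strand, and STP7 was at 0.426 in drop and listed at 0 in WT. MCM4 was listed at 0 in drop and at 9.90 in WT, where it rests on about 213 fragments. MCM2 was at 0.302 in drop and 6.35 in WT, MCM3 at 0.265 in drop and 4.24 in WT, and MCM5 at 0.0958 in drop and 3.56 in WT. The exception was MCM6, listed at 0 in drop and at 0.0503 in WT, which is about 1 fragment. The levels of these subunits of a single ring thus spanned 0.0503 to 19.7 FPKM in WT, while in drop none passed 1.51 FPKM. The E2F site did not follow these levels: MCM6, the lowest, had it and MCM7, the highest, did not.

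CDC45 and the GINS subunits, which together with MCM form the active helicase, were uneven in WT. PSF2 was at 1.30 FPKM in drop and 37.0 in WT, or 28.4-fold lower. SLD5 was listed at 0 in drop and at 6.12 in WT. PSF1 and CDC45 were listed at 0 in drop and stood at 0.805 and 0.498 FPKM in WT, below the level at which the 2-fold rule can be met.

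Among polymerase genes the primase genes and POLA2 differed most, and the large catalytic subunits were near 0. POLA2, the accessory subunit of polymerase alpha, was at 0.337 FPKM in drop and 6.05 in WT. The small primase subunit gene POLA3 was listed at 0 in drop and at 5.73 in WT, and AT1G67320, annotated as the large primase subunit, was at 0.636 in drop and 5.62 in WT. All 3 were 2-fold or more below WT. ICU2, the catalytic subunit of polymerase alpha, was listed at 0 in drop and at 0.219 in WT, and POL2A, that of polymerase epsilon, at 0.0707 in drop and 0.287 in WT. Opposite-strand genes overlap both, ICU2 over 1326 bases by ALC and POL2A over 1756 bases by ADT6 and 624 by AT1G08270, so these low values may hold fragments of either strand. The only members with a higher value in drop belong here: AT5G63960, annotated as polymerase delta subunit 1, was at 0.602 in drop and listed at 0 in WT, and the epsilon subunit gene DPB2 was at 0.581 in drop and 0.244 in WT. Each of these values rests on fewer than 10 fragments, and the log2 ratio of DPB2, 0.35 as deposited, was -0.05 at equal sums. Both genes also overlap a gene on the opposite strand. AT5G22100, over 106 bases of DPB2, was at 0.954 FPKM in drop and 0.751 in WT. RGLG3, over 71 bases of AT5G63960, was listed at 0 in drop and at 1.04 in WT.

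The sliding clamp PCNA, an abundant protein of replicating cells, was listed at or near 0 FPKM in both libraries. PCNA1 was listed at 0 in both, and PCNA2 was listed at 0 in drop and at 0.953 FPKM in WT, from about 8 fragments. The coding sequences of PCNA1 and PCNA2 are 85.6% identical. RFC1, the large subunit of the clamp loader, was at 0.211 in drop and 2.24 in WT, a log2 ratio of -1.42.

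DNA ligase 1 was near its WT level as deposited. LIG1 was at 9.02 FPKM in drop and 9.80 in WT, from about 100 and 203 fragments, and drop held 92.0% of the WT value as deposited. Its log2 ratio of -0.11 was -0.01 after quantile normalization but -1.36 at equal sums, so whether LIG1 differed depends on the scale of the libraries. AT5G26680, the flap endonuclease gene of the group, annotated as a 5'-3' exonuclease family gene, was at 0.927 in drop and 7.36 in WT, a log2 ratio of -2.12.

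The ribonucleotide reductase genes differed widely among themselves. TSO2, a small-subunit gene, was at 22.9 FPKM in drop and 735 FPKM in WT, or 32.0-fold lower, from about 155 and 9342 fragments. It was at rank 1773 in drop and 183 in WT, and 56 genes of the table, itself included, had a log2 ratio as low as its -4.94. RNR2A, another small-subunit gene, was at 8.28 in drop and 9.48 in WT, or 87.4% of WT, with log2 ratios of -0.17 as deposited, -0.06 after quantile normalization and -1.41 at equal sums. The large subunit gene RNR1, whose product pairs with either small subunit, was at 0.159 in drop and 0.966 in WT. TSO2 and RNR2A share 67.9% of their aligned coding bases.

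**Figure D3:**
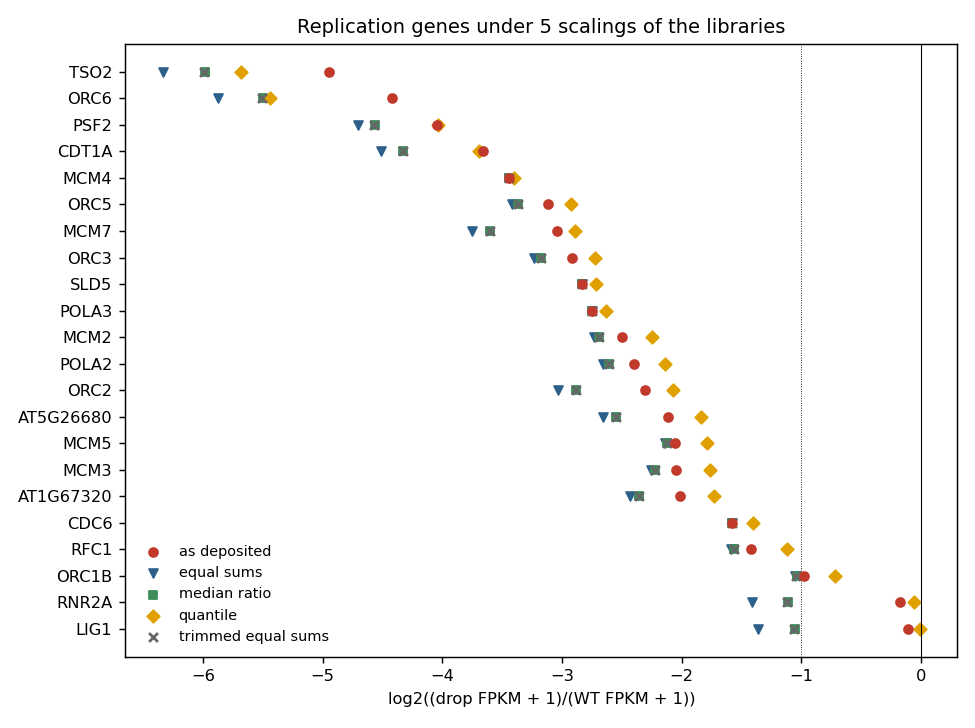
log2((drop FPKM + 1)/(WT FPKM + 1)) of the 22 replication genes with at least 1 FPKM in a library, ordered by the deposited ratio, under 5 scalings of the libraries (symbols). The dotted line marks 2-fold lower: 19 genes lie beyond it under each scaling, while ORC1B, RNR2A and LIG1 lie on either side of it according to the scaling.

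ORC6 and TSO2 outweighed all other members together. They held 74.1% of the summed FPKM of the 35 genes in drop and 90.5% in WT. The sum was 113 FPKM in drop and 2272 in WT, so drop held 4.98% of the WT sum, and 13.6% without ORC6 and TSO2. As a share of all FPKM the 35 genes held 0.00309% in drop and 0.175% in WT. A factor common to a whole library cancels in this share, as it does at equal sums. The share still depends on the other genes in the sum. Its ratio of drop over WT was 0.0176, and 0.0230 with the sums trimmed as above. In drop only 4 members, ORC6, TSO2, LIG1 and RNR2A, had at least 20 estimated fragments, against 23 in WT. For 18 of the 22 members of at least 1 FPKM in WT the drop value rests on fewer than 20 fragments, so the size of their difference is imprecise.

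Markers of the sperm cells differed in the same direction. Of 16 markers 14 were 2-fold or more below WT, where 8.94% of all genes in the table were. Among genes of at least 1 FPKM in a library, as 14 of the markers were, it was 30.4%. In all 15 of 16 were below WT, and their summed level was 3456 FPKM in drop and 51697 in WT, or 6.68%. The gene DAF1 alone was at 2748 FPKM in drop and 32693 in WT, so it sets most of both sums. The zinc finger genes DAZ1 and DAZ2 were listed at 0 in drop. In WT they were low, at 0.249 and 1.51 FPKM, from about 2 and 11 fragments. GEX2, the marker above WT, was at 0.331 in drop and 9.35e-05 in WT, from about 4 and 0 fragments. All 13 vegetative cell markers had at least 10 FPKM in both libraries and stood 2-fold or more above WT, with sums of 70738 FPKM in drop and 23521 in WT, although at equal sums 2 of them turned below WT and 4 stayed 2-fold or more above WT. Of 12 pistil and green tissue markers 3 were 2-fold or more below WT and 0 higher, with sums of 68.4 FPKM in drop and 160 in WT. The green tissue genes were the lower ones, with RBCS3B at 3.22 in drop and 83.7 in WT. Of the 7 carpel regulators 4 had a higher value in drop as deposited. These were HAF at 55.1 in drop and 43.8 in WT, and STK, SPT and NGA1 below 1 FPKM in both libraries. HEC1, STY1 and CRC were listed at 0 in both. The log2 ratio of HAF, 0.33 as deposited, was -1.12 at equal sums. At that scaling 4 of the 12 markers were 2-fold or more below WT, HAF among them. The part of these cell types in the difference of the replication genes was not tested.

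**Figure D4:**
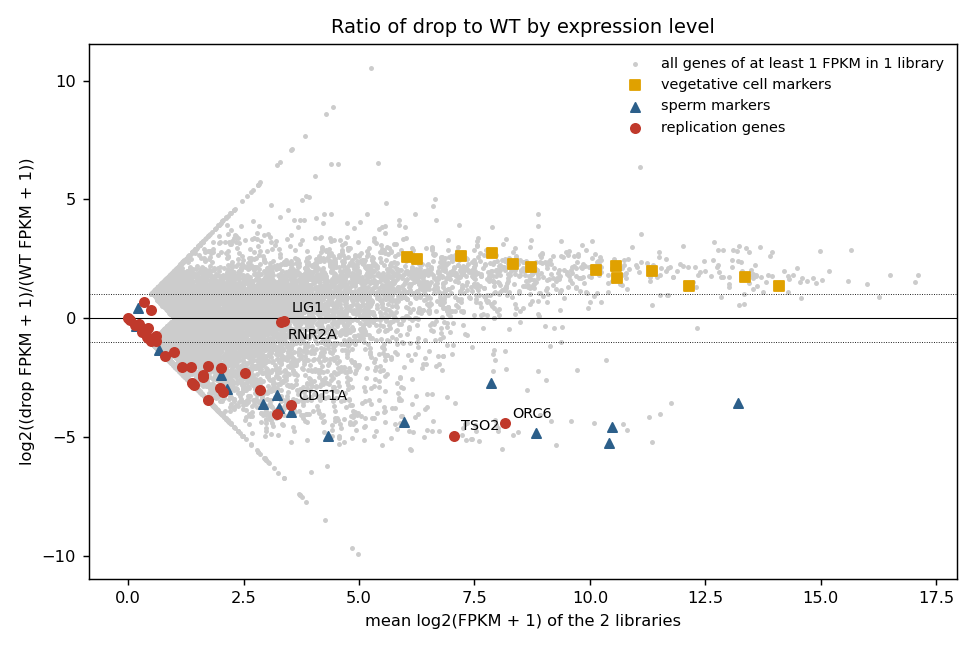
log2((drop FPKM + 1)/(WT FPKM + 1)) against the mean log2(FPKM + 1) of the 2 libraries, for genes of at least 1 FPKM in a library (grey), vegetative cell markers (squares), sperm markers (triangles) and the 35 replication genes (circles). TSO2 (-4.94) and ORC6 (-4.42) lie among the sperm markers, LIG1 and RNR2A near 0, and dotted lines mark 2-fold; the outer diagonals are genes listed at 0 in 1 library.

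Further replication genes outside the 35 were lower in part. Of 27, 12 were 2-fold or more below WT and 0 higher as deposited, with a median log2 ratio of -0.69, and under the other scalings between 9 and 15 were lower, with 1 higher after quantile normalization. Of the 27 genes 18 reached 1 FPKM in a library. Among all genes that did, 30.4% were that far below WT as deposited and 24.9% to 48.6% under the other scalings. The clamp loader gene RFC2 was at 2.0 FPKM in drop and 20.9 in WT. Among subunits of RPA, which coats single-stranded DNA, AT3G52630 was at 2.43 in drop and 19.2 in WT, and RPA32B (AT3G02920) at 0.510 in drop and 11.3 in WT. Another RPA subunit gene, RPA1A, went the other way at 3.69 in drop and 1.74 in WT, a log2 ratio of 0.78 as deposited, 1.10 after quantile normalization and -0.25 at equal sums. The GINS subunit gene PSF3A was at 3.59 in drop and 4.49 in WT, or 80.0% of WT. The replisome factor gene ETG1 was at 1.16 in drop and 7.68 in WT, and POLD3 at 1.10 in drop and 7.64 in WT. POLD4, the smallest polymerase delta subunit, was the highest of this list at 37.4 in drop and 29.0 in WT, with a log2 ratio of 0.36 as deposited and -1.07 at equal sums. The topoisomerase gene TOP1ALPHA was at 5.57 in drop and 15.0 in WT.

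Nucleotide supply genes were lower in drop in part. Of the 6 genes 3 were 2-fold or more below WT under each of the 5 scalings, and 0 were 2-fold or more above WT. Those 3 were the ones that reached 1 FPKM in a library. Among all genes that did, 24.3% were that far below WT under all 5 scalings. The dihydrofolate reductase-thymidylate synthase gene THY-1 was at 2.19 FPKM in drop and 35.9 in WT, and THY-2 at 0.272 in drop and 6.03 in WT. DUT1, which removes dUTP, was at 0.498 in drop and 20.0 in WT. The thymidine kinase genes TK1a and TK1b went the other way as deposited, at 0.388 and 0.593 FPKM in drop and at 0.207 and 0.514 in WT. At equal sums their log2 ratios were -0.09 and -0.32.

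Genes of replication-coupled chromatin assembly and of the E2F pathway stayed below 10 FPKM in both libraries. Of 5 chromatin assembly genes 2 were 2-fold or more below WT: FAS2, a subunit of chromatin assembly factor 1, at 0.15 FPKM in drop and 3.33 in WT, and the histone chaperone ASF1B at 0.650 in drop and 7.61 in WT. MSI1, another subunit of that factor, was at 1.397 in drop and 0.947 in WT, and FAS1 was listed at 0 in both. Of 9 E2F and RBR regulators 5 were 2-fold or more below WT as deposited, 6 at equal sums and 3 after quantile normalization. In the 2 lists 4 of the 5 and 6 of the 9 genes reached 1 FPKM in a library. Among all genes that did, 30.4% were that far below WT as deposited, 48.6% at equal sums and 24.9% after quantile normalization. DEL1, an atypical E2F, was at 0.329 in drop and 4.04 in WT, and RBR1, the retinoblastoma-related repressor of E2F, at 0.332 in drop and 3.21 in WT. DPA, a dimerization partner of E2F, was at 2.82 in drop and 3.11 in WT, or 90.9% of WT. The activator genes E2FA and E2FB were listed at 0 in WT, and in drop E2FA was listed at 0 and E2FB was at 0.143.

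Genes of mitosis did not share a direction on the deposited scale. Of 16, 5 were 2-fold or more below WT and 2 were as far above it as deposited, with a median log2 ratio of 0. At equal sums, trimmed equal sums and the median-ratio scaling 6 were lower and 0 higher. Among all genes of at least 1 FPKM in a library, 48.6%, 43.5% and 43.4% were lower under these scalings, and 4.39%, 7.72% and 7.8% higher. As deposited 30.4% of those genes were lower and 26.4% higher, and 9 of the 16 mitosis genes reached that level. The B-type kinase genes CDKB1;2 and CDKB2;2 were at 0.530 and 0.714 FPKM in drop and at 39.7 and 12.9 in WT. The cyclin gene CYCB1;2 was at 241 in drop and 239 in WT, with a log2 ratio of 0.01 as deposited and -1.47 at equal sums. The Aurora kinase gene AUR1 was at 33.9 in drop and 12.7 in WT, a log2 ratio of 1.35 that was -0.07 at equal sums, and AUR2 at 43.9 in drop and 24.8 in WT, 0.80 as deposited and -0.64 at equal sums. The activator of the anaphase-promoting complex CDC20.1 was at 5.07 in drop and 1.36 in WT, with a log2 ratio of 1.36 as deposited, 1.65 after quantile normalization, 0.51 under the median ratio, 0.50 at trimmed equal sums and 0.24 at equal sums.

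**Figure D5:**
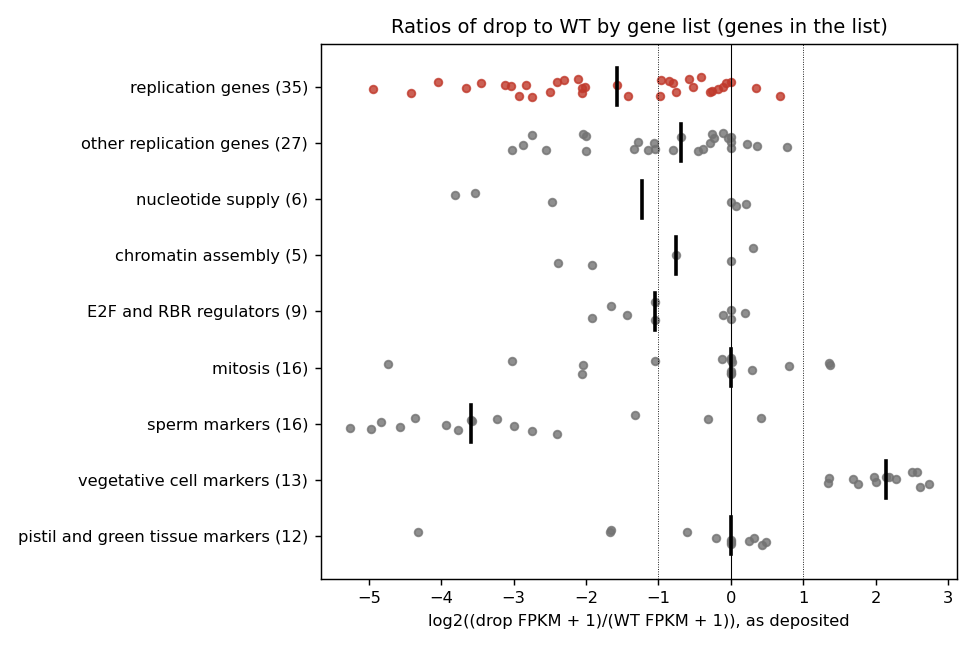
log2((drop FPKM + 1)/(WT FPKM + 1)) as deposited for each gene (points) of the replication genes, the companion lists and the marker lists, with the number of genes in parentheses and the median as a bar. The replication genes reach from -4.94 to 0.68 with a median of -1.58, the sperm markers have a median of -3.58 and the vegetative cell markers one of 2.14.

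Promoters with and without the E2F site were compared as a description. Of the 16 members with it 10 were 2-fold or more below WT, with a median log2 ratio of -2.09. Of the 19 without it 9 were, with a median of -0.98. The highest level among members with the site was 1.58 FPKM in drop and 37.0 in WT, against 60.9 in drop and 1322 in WT among members without it. The median level went the other way in WT, at 4.98 FPKM with the site and 2.24 without it, and was 0.212 and 0.211 in drop. At lower levels the 1 added to each value understates the ratio more, so the 2 median ratios are not on an equal footing. Of the other lists, 7 of 27 further replication genes and 2 of 5 chromatin assembly genes held the site, as did 1 of 9 E2F and RBR regulators, while 0 of the 5 nucleotide supply genes with a searched window, 0 of 16 mitosis genes and 0 of 16 sperm markers did.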

How the data were processed

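Polyadenylated RNA of semi-in-vivo pollen tubes was profiled by Smart-seq2 in 1 drop and 1 WT library. The authors deposited a single table of FPKM values, 1 column for each library, per the file headers. Per the submitters' processing notes, TAIR10 was the build and Cufflinks 2.2.1 and TopHat2 2.0.14 were used, and no source used here gives their settings. Members and companion lists were chosen with earlier results of these data known. Any of the 35 and the highest markers could be named. So could up to 8 companion genes per list with at least 1 FPKM, taken by mean FPKM. Named outside that rule, after their values were seen, are CUL3, AT1G26850, E2FA, E2FB, FAS1, TK1a, TK1b, RPA1A, DAZ1, DAZ2 and GEX2. The same holds for STK, SPT, NGA1, HEC1, STY1, CRC, STP7, ALC, ADT6, AT1G08270, AT5G22100 and RGLG3.

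The comparison was log2((drop FPKM + 1)/(WT FPKM + 1)) with a 2-fold rule and no filter unless given; with 1 library per genotype no p-value was computed. No fold is given against 0, which can be a failed estimate. Calls and scalings were run on a copy of the WT values with set changes and no noise. That checks the arithmetic and says nothing of the precision of these libraries. Fragment numbers are FPKM times the longest RefSeq transcript divided by the value of 1 fragment, from the lowest peak in single-transcript genes of at least 3 kb; PCR copies were not marked, so fragments are not independent molecules. Symbols, gene starts and promoter bases come from RefSeq on TAIR10.1, not the authors' TAIR10, and 30 of the 35 names are in its table. Smart-seq2 does not mark strand, and 12 of the 35 genes overlap another by at least 50 bases, ORC6 and TSO2 not among them. Coding bases were aligned with Biopython 1.88; Python 3.11.15, numpy 2.4.6, pandas 2.3.3 and matplotlib 3.10.9 were used. Other scalings, pseudocounts, filters, a 4-fold rule and motif settings were tried.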

Additional observations from a re-analysis of the deposited data

How the results depend on the processing

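The 19 replication genes at least 2-fold lower in drop were 22 with equal sums, trimmed equal sums or the median-ratio scaling, 19 after quantile normalization, 17 at 4-fold and 15 without genes at 0; they were 29 with a pseudocount of 0.1, 6 with 10, and 7 with FPKM of at least 10. The number higher was 0 under each of these settings except 1 with a pseudocount of 0.1. The median log2 ratio of -2.45 over members of at least 1 FPKM was -4.05 with a pseudocount of 0.1, -0.67 with 10, -1.58 without a filter and -3.66 with FPKM of at least 10, and between -2.74 and -2.19 under the scalings. The share of summed FPKM in drop over that in WT, 0.0176, was 0.0230 with trimmed sums. It was 0.0483 without ORC6 and TSO2, an alternative chosen after seeing the data. Among all genes, 3001 were lower, or 4800 at equal sums, 745 with a pseudocount of 10, 1180 at 4-fold, 1015 with FPKM of at least 10 and 1997 without genes at 0. Those higher were 2605, or 434 at equal sums, 771 with the median-ratio scaling, 763 at trimmed equal sums, 1201 with a pseudocount of 10, 762 at 4-fold and 1650 with FPKM of at least 10. Pseudocounts, filters and scalings set these changes by construction. Of the 35 single log2 ratios, 8 moved by more than 1.5-fold at equal sums, 5 with the median-ratio scaling, 5 at trimmed equal sums and 2 after quantile normalization. With a pseudocount of 0.1 it was 26, and with 10 it was 23. Under these settings 0 of the ratios past 2-fold turned sign. The E2F site was found in 16 members with TTTCCCGC and TTTGGCGC alone, and in 12 before the start alone, chosen after seeing the data. No paired analysis was possible because the genotypes have 1 library apiece.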
